A study of Rattus norvegicus with 18 samples.

Results

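The matrix metalloproteinases (MMPs), the ADAM and ADAMTS proteases, the ADAMTS-like proteins and the tissue inhibitors of metalloproteinases (TIMPs) were examined in macrophages sorted from the synovium of the rat knee. Members were every gene whose symbol is Mmp, Adam, Adamts, Adamtsl or Timp followed by a number, which gave 67 of the 30643 genes in the tables, with 1 gene left out by the rule. At 4-weeks 55 of the 67 had a mean of at least 10 normalized reads, and at 12-weeks 54 did. Cells came from male, wild type Sprague Dawley rats, 12 weeks old at surgery. In the OA groups the anterior cruciate ligament was cut and the medial meniscus destabilized, and the sham groups had the joint opened alone. Synovial tissue was taken 4 or 12 weeks later, digested, and sorted on magnetic beads for CD11b/c, an integrin of monocytes, macrophages and other myeloid cells. Each library is a pool of tissue from 4 rats at 4-weeks or from 3 rats at 12-weeks, so that a library averages over animals. By the labels there were 5 libraries of each group at 4-weeks and 4 of each at 12-weeks, whereas the study's methods state 5 per group at both times. Total RNA without ribosomal RNA was sequenced.

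Metalloproteinases are enzymes that use a zinc ion to cut proteins outside the cell or at its surface. MMPs cut collagens and other matrix proteins, ADAMs release growth factors, cytokines and receptors from the cell membrane, and ADAMTS enzymes cut proteoglycans such as aggrecan and versican or trim procollagens. ADAMTS-like proteins resemble ADAMTS enzymes but have no protease domain, and TIMPs block the active site of these enzymes. In the osteoarthritic joint, collagenases and aggrecanases are known for the breakdown of cartilage, and the synovium is among the tissues that release them.

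The 18 libraries held 4662344 to 18080503 reads on genes, and 3 reads, taken as the smallest detectable amount, equalled 2.06 to 6.96 normalized reads at 4-weeks and 2.27 to 3.82 at 12-weeks, which covers counting error only. All 12 macrophage markers examined were present, with a mean log2 level of 12.99 in OA and 12.86 in sham at 4-weeks and of 13.38 and 13.23 at 12-weeks (exact permutation p = 0.135 and 0.229, adjusted over 13 marker lists 0.297 and 0.495). Genes of fibroblasts were also abundant, with a summed level of 49200.0 to 114920 normalized reads at 4-weeks and 58486 to 113810 at 12-weeks over 13 markers, against 134950 to 160150 and 148080 to 212770 for the macrophage markers. Genes of endothelial cells were abundant as well. Over 6 markers their summed level was 28235 to 40038 normalized reads at 4-weeks and 27610 to 47886 at 12-weeks. The part of each cell type in a member's level was not tested. In bulk samples, fewer cells of a type and less RNA per cell cannot be told apart. Sham replicate 3 of 4-weeks had the fewest reads. Sham replicate 3 of 12-weeks stood apart from the other sham libraries of its time point in the fibroblast and endothelial markers. Values without these libraries are therefore given for several members. Values of a gene are listed in the order of the replicate numbers, which pair no libraries.

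At 12-weeks the collagenase gene Mmp13, the stromelysin genes Mmp3 and Mmp10, the membrane-type genes Mmp14 and Mmp16, and the ADAMTS genes Adamts14, Adamts16 and Adamts17 had higher levels in OA than in sham, by 0.69 to 3.22 on the log2 scale. Adamts15, Adam12, Timp3 and Timp4 had lower levels in OA, with log2 differences of -0.60 to -0.32. At 4-weeks Adamts16, Mmp16, Mmp2, Mmp3, Mmp10, Adamts14 and Timp2 stood higher in OA and Timp3 lower. None of these differences passed the test over all genes in limma at either time point, so they are described here by their values, with the adjusted p of limma and a two-sided exact permutation p of the single gene.

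Of the 55 members tested at 4-weeks, limma called 0 at an adjusted p under 0.05 and a log2 difference of at least 0.5, the criteria of the study, as it called 0 of 14861 genes in all (0.0%). Without adjustment, 11 members (20.0%) had a p under 0.05, 9 higher and 2 lower in OA, beside 7.92% of all genes tested (4.1% higher and 3.82% lower). In edgeR's quasi-likelihood test, run on recovered reads, 0 genes were called as well, with 13 members at an unadjusted p under 0.05, 7 higher and 6 lower, beside 8.09% of all genes. DESeq2's Wald test called 27 genes (0.182%), none of them among its 54 members tested. With sham replicate 2 left out, 6 members had an unadjusted p under 0.05 in limma, the fewest of the 10 fits that each left out 1 library. The count did not exceed 15 in these fits, and a share over all genes is given only without sham replicate 3. With sham replicate 3 left out, it was 9, beside 10.4% of all genes, and limma called 1 gene (0.00673%), which was no member.

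At 12-weeks, limma called 0 of 54 members and 0 of 14666 genes (0.0%). An unadjusted p under 0.05 was reached by 23 members (42.6%), 17 higher and 6 lower in OA, beside 12.4% of all genes tested (5.75% higher and 6.62% lower). In edgeR 0 genes were called, and 19 members had an unadjusted p under 0.05, beside 12.5% of all genes. DESeq2 called 5 of its 53 members (9.43%), namely Adamts14, Adamts16, Mmp13 and Mmp16 higher in OA and Adamts15 lower, beside 95 genes in all (0.671%). The count at an unadjusted p in limma was 12 without OA replicate 4, 14 without OA replicate 2 and 14 without sham replicate 2, with no share over all genes given for these fits. With sham replicate 3 left out it was 21, and limma then called 6 members (11.1%), beside 81 genes in all (0.552%). Those 6 were Adamts2, Adamts16, Adamts17, Mmp2, Mmp14 and Mmp16, each higher in OA. Sham replicate 3 was the highest sham library for each of them, so leaving it out widens these differences by itself.

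By family, 15 MMPs were tested at each time, of which 4 were higher and 0 lower in OA at an unadjusted p under 0.05 in limma at 4-weeks, and 7 higher and 1 lower at 12-weeks. Among 13 ADAMs, 1 was higher and 0 lower at 4-weeks, and 1 was higher and 1 lower at 12-weeks. Of the ADAMTS genes, 3 of 19 were higher and 1 lower at 4-weeks, and 5 of 18 were higher and 2 lower at 12-weeks. Of the 4 ADAMTS-like genes, 0 and 3 were higher and none was lower, and of the 4 TIMPs, 1 was higher and 1 lower at 4-weeks and 1 was higher and 2 lower at 12-weeks. Beside these counts, 4.1% of all genes tested were higher and 3.82% lower at 4-weeks, and 5.75% and 6.62% at 12-weeks.

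At any p, 56.4% of the members were higher in OA at 4-weeks and 57.4% at 12-weeks, against 57.1% and 47.5% of all genes tested. The median log2 difference of the members was 0.047 at 4-weeks and 0.041 at 12-weeks, against 0.028 and -0.011 over all genes tested. The median size of the difference, without its sign, was 0.243 and 0.267 for the members and 0.112 and 0.119 over all genes. By this measure the members stood farther from 0 than the middle gene at both times, but the genes were not matched for level.

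**Figure D1:**
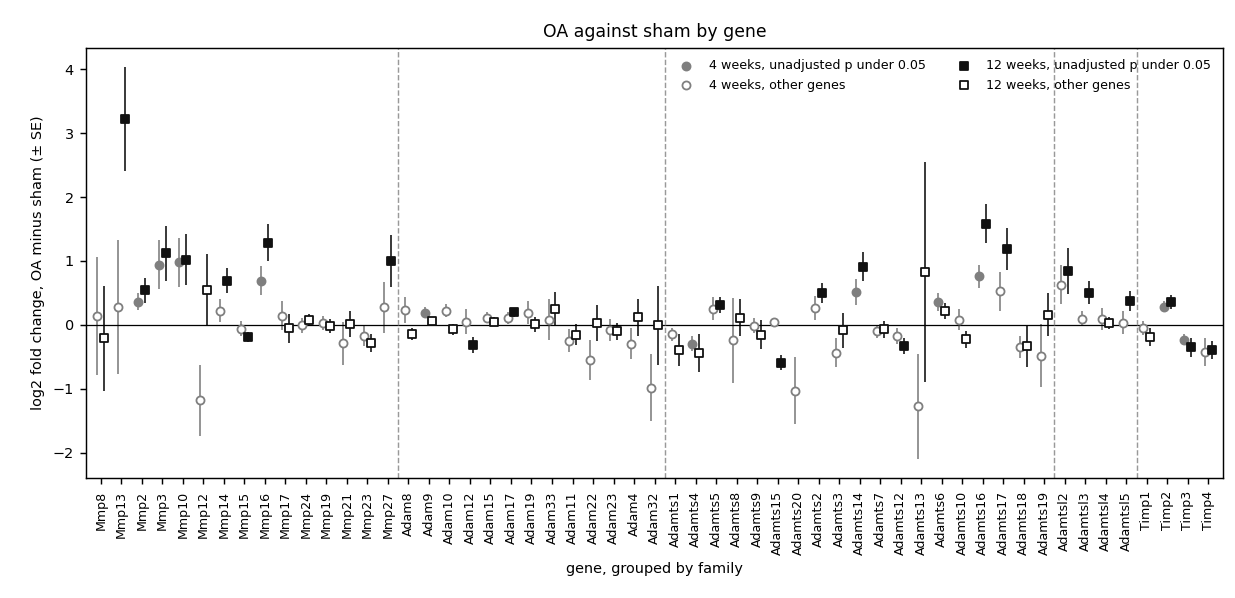
OA minus sham difference of each tested member on the log2(normalized reads + 1) scale, with its standard error from limma as a bar, at 4-weeks (circles) and 12-weeks (squares), genes along the horizontal axis by family, and filled points where the unadjusted p was under 0.05. Adamts15 lies below 0 at 12-weeks, and Mmp13 at 12-weeks is highest at 3.22.

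Among the collagenases, which cut fibrillar collagens, Mmp13 (ENSRNOG00000008478), the enzyme best known for cutting type II collagen of cartilage, had a 123-fold range between libraries at 4-weeks and a 98.3-fold range at 12-weeks. At 12-weeks Mmp13 had 31.4, 338, 299 and 168 normalized reads in the OA libraries and 27.96, 3.44, 38.2 and 13.8 in the sham libraries. OA replicates 2, 3 and 4 were above all sham libraries, but OA replicate 1 lay between sham replicates 1 and 3, so the groups overlapped. Its log2 difference was 3.22 (SE 0.81) in limma, adjusted p = 0.278, exact permutation p = 0.0571, with an adjusted p of 0.0257 in DESeq2. At 4-weeks the same gene had 63.8, 1327, 55.6, 10.8 and 48.8 normalized reads in the OA libraries and 285, 18.4, 76.6, 76.2 and 31.3 in the sham libraries. A single library in each group, OA replicate 2 and sham replicate 1, was far above the rest, and the log2 difference of 0.28 (SE 1.05) in limma, adjusted p = 0.945, exact permutation p = 0.841, turned to -0.74 without OA replicate 2. Mmp8, the collagenase stored by neutrophils, ranged from 56.5 to 1529 in OA and from 109 to 454 in sham at 4-weeks, a 27.1-fold range. The log2 level of the neutrophil markers moved with it in both groups. It was 8.58 and 8.41 in OA replicates 1 and 3 against 5.16 to 5.31 in the other OA libraries. Sham replicates 1 and 4, with 454 and 335 normalized reads of Mmp8, had 7.41 and 7.46, against 6.12 to 6.74 in the other sham libraries. The part of neutrophils in the Mmp8 values was not tested. At 12-weeks Mmp8 ranged from 47.2 to 285 in OA and 29.2 to 397 in sham. OA replicate 2 and sham replicate 1 had the highest of these values and also the highest neutrophil markers of their groups, at 7.23 and 7.19.

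The stromelysins Mmp3 and Mmp10 cut proteoglycans and non-fibrillar matrix and activate other MMPs. At 12-weeks Mmp3 (ENSRNOG00000032626) had 428, 525, 615 and 399 normalized reads in the OA libraries and 325, 108, 527 and 131 in the sham libraries, a log2 difference of 1.12 (SE 0.43) in limma, adjusted p = 0.36, exact permutation p = 0.143. Mmp10 had 52.4, 89.9, 66.5 and 67.6 normalized reads in the OA libraries and 46.1, 17.2, 71.2 and 20.7 in the sham libraries, which gave 1.02 (SE 0.40) in limma, adjusted p = 0.368, exact permutation p = 0.114. For both genes sham replicate 3 was the highest of the sham libraries, and it reached into the range of the OA libraries. At 4-weeks Mmp3 had 459, 675, 215, 255 and 296 normalized reads in the OA libraries and 422, 92.1, 132, 229 and 160.2 in the sham libraries, and its log2 difference was 0.94 (SE 0.39) in limma, adjusted p = 0.607, exact permutation p = 0.0873. Mmp10 at 4-weeks had 65.2, 93.4, 38.5, 33.2 and 37.96 normalized reads in the OA libraries and 54.3, 12.6, 18.6, 32.8 and 21.2 in the sham libraries, a log2 difference of 0.98 (SE 0.38) in limma, adjusted p = 0.594, exact permutation p = 0.0556. The groups overlapped at this time too, with OA replicates 1 and 2 highest for both genes and sham replicate 1 the highest of the sham libraries.

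Mmp12, the macrophage elastase, had 1943, 1838, 508, 744 and 426 normalized reads in the OA libraries and 5739.7, 2362, 603, 2159 and 1967 in the sham libraries at 4-weeks. Sham replicates 1, 2, 4 and 5 were above every OA library while sham replicate 3 was among the lowest, and the log2 difference was -1.18 (SE 0.56) in limma, adjusted p = 0.639, exact permutation p = 0.111. At 12-weeks it had 218, 285, 225 and 1045 normalized reads in the OA libraries and 556, 256, 112 and 199 in the sham libraries, with OA replicate 4 far above the other OA libraries. Its log2 difference was 0.55 (SE 0.55) in limma, adjusted p = 0.693, exact permutation p = 0.486, and it was -0.011 with sample quality weights, which give less weight to libraries that stand apart.

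The promoters of Mmp13, Mmp3, Mmp10 and Mmp12 are shown because these genes had wide ranges between libraries and hold the same letters, TGAGTCA, the sequence that AP-1 transcription factors bind. Each sequence covers the 150 bases before the gene start in RefSeq, assembly GRCr8, plus strand, 5′ to 3′. Capitals mark AP-1 letters (TGAGTCA, or TGACTCA on the opposite strand), TATA letters (TATAAA, or TTTATA on the opposite strand) and RUNX letters (AACCACA). The stretches are chr8:12782679-12782828 for Mmp13, chr8:12925131-12925280 for Mmp3, chr8:12974557-12974706 for Mmp10, chr8:12866502-12866651 for Mmp12 and chr8:13008740-13008889 for Mmp8, whose promoter in the same cluster of genes holds no AP-1 letters.
Mmp13: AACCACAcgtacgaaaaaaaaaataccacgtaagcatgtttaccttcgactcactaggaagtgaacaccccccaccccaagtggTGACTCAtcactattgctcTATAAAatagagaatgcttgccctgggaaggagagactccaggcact
Mmp3: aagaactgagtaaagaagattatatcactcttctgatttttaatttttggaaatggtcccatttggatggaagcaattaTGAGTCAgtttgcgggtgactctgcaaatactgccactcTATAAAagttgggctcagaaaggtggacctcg
Mmp10: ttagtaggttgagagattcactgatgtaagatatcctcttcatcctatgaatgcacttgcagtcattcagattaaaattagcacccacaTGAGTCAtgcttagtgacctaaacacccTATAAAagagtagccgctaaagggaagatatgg
Mmp12: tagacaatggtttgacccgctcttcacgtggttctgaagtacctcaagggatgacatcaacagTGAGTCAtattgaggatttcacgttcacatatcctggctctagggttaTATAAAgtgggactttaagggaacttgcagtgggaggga
Mmp8: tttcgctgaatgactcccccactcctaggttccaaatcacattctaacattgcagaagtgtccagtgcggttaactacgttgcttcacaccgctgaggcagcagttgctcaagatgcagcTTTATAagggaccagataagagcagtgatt
The AP-1 letters begin 66 bases before the gene start in Mmp13, 71 in Mmp3, 61 in Mmp10 and 87 in Mmp12, and the TATA letters begin 47, 32, 33 and 39 bases before it. In Mmp8 the TATA letters begin 30 bases before the start, on the opposite strand. A promoter was found for 40 of the 55 members, and both strands of the 250 bases before the start were searched for each motif. AP-1 letters were in 5 of the 40 (12.5%), namely these 4 and Adam19, against 3.98% of 27457 promoters of the same length. TATAAA was in 10 (25.0%) against 13.1%, and AGGAAG, the PEA3 letters bound by ETS factors, was in 13 (32.5%) against 29.4%. AACCACA was in 1, that of Mmp13 (2.5%), against 4.54% of all promoters. These matches describe the letters in the window and are not measured binding sites.

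**Figure D2:**
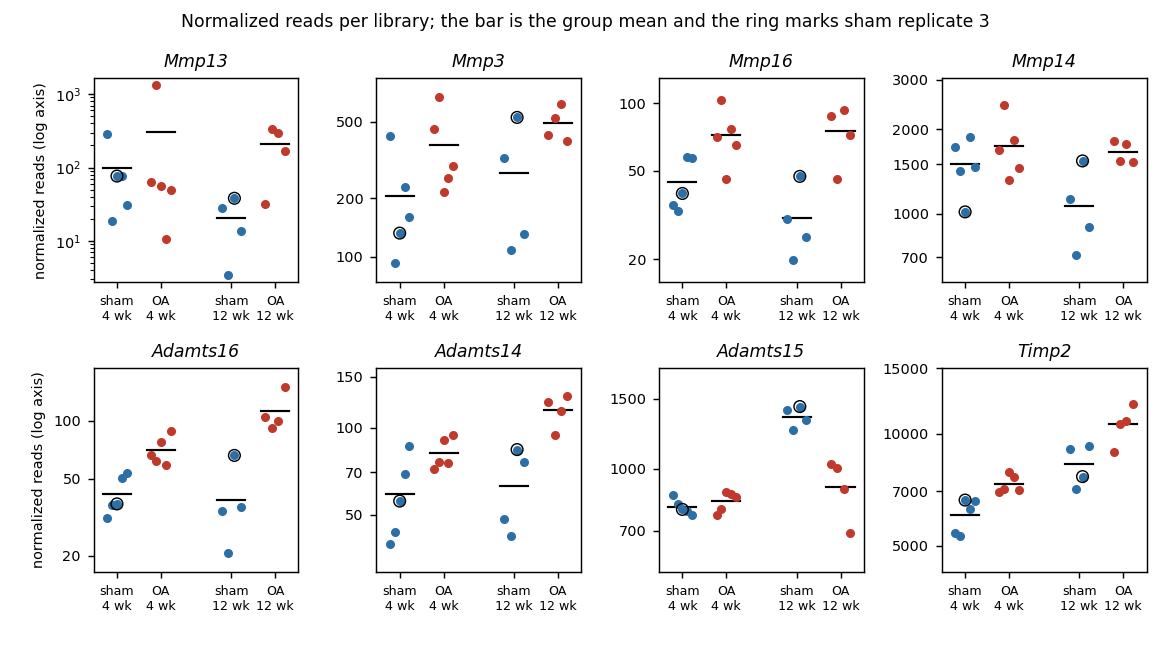
Normalized reads per library on a log axis for Mmp13, Mmp3, Mmp16, Mmp14, Adamts16, Adamts14, Adamts15 and Timp2, by group and time point, with each library as a point, the group mean as a bar and sham replicate 3 ringed. Mmp13 at 12-weeks spans 3.44 to 338 normalized reads, and the OA and sham libraries of Adamts15 do not overlap at 12-weeks.

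Mmp2, the gelatinase that cuts denatured collagen, Mmp14, the membrane-type MMP that activates it, and Timp2, which takes part in that activation, were all higher in OA at 12-weeks. Mmp2 had 4251, 3349, 3617 and 2914 normalized reads in the OA libraries and 2038, 1880.4, 3822 and 2306 in the sham libraries, a log2 difference of 0.54 (SE 0.20) in limma, adjusted p = 0.358, exact permutation p = 0.114. For Mmp14 the values were 1822, 1536, 1773 and 1526 normalized reads in the OA libraries and 1128, 715, 1543 and 899 in the sham libraries, and the log2 difference was 0.69 (SE 0.19) in limma, adjusted p = 0.278, exact permutation p = 0.0857. Timp2 had 8936, 10579, 10833 and 12011 normalized reads in the OA libraries and 9097, 7111, 7664 and 9254 in the sham libraries, with 0.36 (SE 0.12) in limma, adjusted p = 0.318, exact permutation p = 0.0857. For Mmp2 and Mmp14 sham replicate 3 lay among the OA libraries, and for Timp2 sham replicates 1 and 4 lay above OA replicate 1, so the groups overlapped for all 3 genes. At 4-weeks Mmp2 had 2508, 3350.0, 2332, 3175 and 2704 normalized reads in the OA libraries and 1826, 1884, 2288, 2926 and 2070.4 in the sham libraries, a log2 difference of 0.36 (SE 0.14) in limma, adjusted p = 0.593, exact permutation p = 0.0556. Timp2 had 6975, 7108, 7870.2, 7662 and 7047 normalized reads in the OA libraries and 5402, 5310.3, 6629, 6290.1 and 6581 in the sham libraries, and here all OA libraries exceeded all sham libraries, with 0.28 (SE 0.089) in limma, adjusted p = 0.511, exact permutation p = 0.00794, which is the lowest p possible for 5 against 5 libraries. Mmp14 showed no such separation at 4-weeks, with 1691, 2433, 1324, 1832 and 1462 normalized reads in the OA libraries and 1723, 1417, 1017, 1875 and 1471 in the sham libraries and a log2 difference of 0.22 (SE 0.18) in limma, adjusted p = 0.756, exact permutation p = 0.397.

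Mmp16, another membrane-type MMP, was higher in OA at both times. At 12-weeks it had 88.1, 45.96, 93.3 and 71.9 normalized reads in the OA libraries and 30.2, 19.8, 47.1 and 25.3 in the sham libraries, a log2 difference of 1.28 (SE 0.29) in limma, adjusted p = 0.265, exact permutation p = 0.0571, and an adjusted p of 0.00897 in DESeq2. At 4-weeks it had 70.7, 104, 46.01, 76.4 and 65.1 normalized reads in the OA libraries and 34.99, 32.96, 39.5, 57.4 and 57.1 in the sham libraries, a log2 difference of 0.69 (SE 0.23) in limma, adjusted p = 0.554, exact permutation p = 0.0397. The highest sham library exceeded the lowest OA library at both times. Mmp15, of the same class, had 557, 567, 633 and 520.1 normalized reads in the OA libraries and 697, 668, 664 and 572 in the sham libraries at 12-weeks, lower in OA by a log2 difference of -0.19 (SE 0.085) in limma, adjusted p = 0.4, exact permutation p = 0.0571. At 4-weeks its log2 difference was -0.062 (SE 0.12) in limma, adjusted p = 0.891, exact permutation p = 0.595. The remaining membrane-type genes, Mmp17 and Mmp24, had log2 differences between -0.054 and 0.14 at the 2 times, and none had an unadjusted p under 0.05 in limma. Of the other MMPs, Mmp27 had 20.9, 15.3, 15.01 and 17.2 normalized reads in the OA libraries and 11.3, 3.44, 16.5 and 5.75 in the sham libraries at 12-weeks, a log2 difference of 1.00 (SE 0.40) in limma, adjusted p = 0.374, exact permutation p = 0.0857, while Mmp19, Mmp21 and Mmp23 ranged from -0.29 to 0.031 over both times. The smallest unadjusted limma p among these 3 genes was 0.069, for Mmp23 at 12-weeks, where it had 128 normalized reads in OA and 153 in sham on average.

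Adamts16, an ADAMTS protease that can cut fibronectin, had the smallest p-value of all members at both times, and its groups did not overlap at either. At 12-weeks Adamts16 (ENSRNOG00000016812) had 105, 91.9, 99.7 and 150.1 normalized reads in the OA libraries and 34.01, 20.6, 66.1 and 35.6 in the sham libraries. The mean was 2.85-fold higher in OA, and the log2 difference was 1.58 (SE 0.30) in limma, adjusted p = 0.264, exact permutation p = 0.0286. With 4 against 4 libraries this exact p cannot be lower. At 4-weeks it had 66.6, 61.9, 77.6, 58.98 and 88.9 normalized reads in the OA libraries and 31.3, 36.8, 37.1, 50.4 and 53.4 in the sham libraries, 1.69-fold higher in OA on the means, with 0.76 (SE 0.18) in limma, adjusted p = 0.403, exact permutation p = 0.00794. Groups that did not overlap were found in 1.87% of all genes at 4-weeks and in 6.29% at 12-weeks, and in 3 and 4 members. With OA above sham, they were 1.18% of all genes at 4-weeks and 2.85% at 12-weeks, and with OA below sham 0.693% and 3.44%. Besides Adamts16 these were Adam9 and Timp2 at 4-weeks, and Adamts14, Adamts15 and Adam12 at 12-weeks.

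The procollagen N-proteinases Adamts2, Adamts3 and Adamts14 remove the amino-terminal propeptide of fibrillar procollagens. At 12-weeks Adamts14 had 122, 93.96, 114 and 129 normalized reads in the OA libraries and 48.4, 42.1, 83.9 and 75.8 in the sham libraries, with every OA library above every sham library. Its log2 difference was 0.91 (SE 0.22) in limma, adjusted p = 0.269, exact permutation p = 0.0286, and the adjusted p was 0.0235 in DESeq2. At 4-weeks it had 72.1, 76.2, 90.7, 75.6 and 94.4 normalized reads in the OA libraries and 39.6, 43.6, 55.7, 69.1 and 86.5 in the sham libraries, a log2 difference of 0.52 (SE 0.20) in limma, adjusted p = 0.594, exact permutation p = 0.0556. Adamts2 had 875, 675, 705 and 719 normalized reads in the OA libraries and 502, 466, 734 and 429.8 in the sham libraries at 12-weeks, a log2 difference of 0.50 (SE 0.16) in limma, adjusted p = 0.304, exact permutation p = 0.114. Sham replicate 3 was again the sham library nearest to OA for Adamts2, and without it the log2 difference was 0.67 with an adjusted p of 0.028 in limma. Adamts3 had log2 differences of -0.44 and -0.088.

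Of the proteoglycanases, 2 of 7 tested had positive differences at 4-weeks and 2 of 6 at 12-weeks. Adamts15, which cuts versican and aggrecan, had 1027, 1003, 892 and 689.6 normalized reads in the OA libraries and 1401, 1249.6, 1432 and 1323 in the sham libraries at 12-weeks. Every OA library was below every sham library, and the log2 difference was -0.60 (SE 0.12) in limma, adjusted p = 0.264, exact permutation p = 0.0286, with an adjusted p of 0.00376 in DESeq2. At 4-weeks it had 765, 794, 873, 863 and 849 normalized reads in the OA libraries and 858, 816, 791, 786 and 766 in the sham libraries, and the log2 difference was 0.044 (SE 0.067) in limma, adjusted p = 0.865, exact permutation p = 0.365. Its 10 libraries of 4-weeks lay within a 1.14-fold range. Adamts5, a main aggrecanase of cartilage in rodents, had 302, 257, 284 and 271 normalized reads in the OA libraries and 229, 202, 287 and 188 in the sham libraries at 12-weeks, a log2 difference of 0.31 (SE 0.13) in limma, adjusted p = 0.378, exact permutation p = 0.114, and 0.25 at 4-weeks. Adamts4, the other main aggrecanase, had 1533, 2103, 1659.9, 1901 and 1892 normalized reads in the OA libraries and 2617, 1987, 2704, 1983 and 1920.4 in the sham libraries at 4-weeks, a log2 difference of -0.30 (SE 0.12) in limma, adjusted p = 0.607, exact permutation p = 0.0794. At 12-weeks Adamts4 had 6336, 4159, 4949 and 2291 normalized reads in the OA libraries and 4998, 4616, 9019 and 4906 in the sham libraries, with -0.44 (SE 0.30) in limma, adjusted p = 0.546, exact permutation p = 0.371, and sham replicate 3 was far above the other sham libraries. Adamts1, which cuts versican, had 9289, 11335, 8995, 11107 and 12522 normalized reads in the OA libraries and 13389, 11511, 11145, 11434 and 11281 in the sham libraries at 4-weeks. At 12-weeks it had 19690.0, 15281, 18968 and 10550.0 normalized reads in the OA libraries and 18240.0, 16945, 32881 and 17786 in the sham libraries, where sham replicate 3 again stood far above the rest of its group. Its log2 differences were -0.15 (SE 0.11) and -0.40 (SE 0.25), and those of Adamts9 were -0.012 and -0.16, none with an unadjusted p under 0.05 in limma. Adamts8 and Adamts20, at means near the minimum of 10, were not separated either, and Adamts20 was tested at 4-weeks alone, with 64.99 normalized reads in sham replicate 3 and at most 14.1 in any other library.

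Among the remaining ADAMTS genes, Adamts12, which can cut cartilage oligomeric matrix protein (COMP), had 1491, 1120.3, 1192 and 936 normalized reads in the OA libraries and 1472, 1459, 1624 and 1326 in the sham libraries at 12-weeks, a log2 difference of -0.33 (SE 0.13) in limma, adjusted p = 0.359, exact permutation p = 0.114. Adamts7, which shares that substrate, had log2 differences of -0.10 and -0.072. Adamts17, linked to fibrillin microfibrils, had 64.6, 62.3, 103 and 118 normalized reads in the OA libraries and 33.2, 21.5, 68.7 and 34.5 in the sham libraries at 12-weeks, with 1.19 (SE 0.34) in limma, adjusted p = 0.278, exact permutation p = 0.0857. Adamts6 had 132, 152, 150.4, 139.6 and 220.2 normalized reads in the OA libraries and 113, 112, 107, 150.02 and 131 in the sham libraries at 4-weeks, and OA replicate 5 was far above the others of its group. Its log2 difference was 0.36 (SE 0.15) in limma, adjusted p = 0.607, exact permutation p = 0.0317. Adamts13, the protease of von Willebrand factor, ran from 6.24 to 241 normalized reads in OA at 4-weeks and from 0 to 163 in sham at 12-weeks, and the groups overlapped at both times. Adamts10, Adamts18 and Adamts19 had unadjusted limma p-values of 0.072 to 0.645.

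All 4 ADAMTS-like genes had positive log2 differences at both times, and 3 had an unadjusted p under 0.05 in limma at 12-weeks against 0 at 4-weeks. Adamtsl2 had 45.4, 43.9, 43.97 and 40.8 normalized reads in the OA libraries and 23.4, 12.03, 53.4 and 20.7 in the sham libraries at 12-weeks, a log2 difference of 0.85 (SE 0.36) in limma, adjusted p = 0.383, exact permutation p = 0.143. Adamtsl3 had 253, 195, 231 and 181 normalized reads in the OA libraries and 144, 121, 215 and 134 in the sham libraries, with 0.50 (SE 0.18) in limma, adjusted p = 0.337, exact permutation p = 0.0857. For Adamtsl5 the values were 251, 261, 202 and 278 normalized reads in the OA libraries and 187, 144, 205 and 234 in the sham libraries, and the log2 difference was 0.38 (SE 0.16) in limma, adjusted p = 0.378, exact permutation p = 0.0857. For all 3 genes the lowest of the 8 libraries was sham replicate 2, and the OA and sham ranges overlapped. Adamtsl4, which takes part in fibrillin fibre formation, had log2 differences of 0.087 (SE 0.17) and 0.032 (SE 0.092). It had 1480.2, 1435, 1739.5, 1734 and 1502 normalized reads in the OA libraries and 1345, 1467, 972, 2105 and 1762 in the sham libraries at 4-weeks, and 2764, 3009, 2411 and 2475 normalized reads in the OA libraries and 2566, 2608, 2317 and 2932 in the sham libraries at 12-weeks. The sign of its difference turned without sham replicate 3 at either time and without OA replicate 2 at 12-weeks.

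The 8 ADAMs with protease activity had log2 differences of 0.047 to 0.24 at 4-weeks and of -0.32 to 0.25 at 12-weeks. Adam17, the enzyme that releases TNF, had 3921, 4380.2, 4214 and 4576 normalized reads in the OA libraries and 3765, 3625, 3572 and 3979.6 in the sham libraries at 12-weeks, a log2 difference of 0.19 (SE 0.069) in limma, adjusted p = 0.338, exact permutation p = 0.0571. At 4-weeks its log2 difference was 0.11 (SE 0.093). Adam10, which cuts Notch and cadherins, had 0.22 and -0.072. Adam9 had 4089, 4182, 4301, 4159 and 4095 normalized reads in the OA libraries and 3682, 3916, 3017, 3640.2 and 4070.0 in the sham libraries at 4-weeks, with no overlap of the groups, a log2 difference of 0.19 (SE 0.085) in limma, adjusted p = 0.616, exact permutation p = 0.00794. At 12-weeks Adam9 had a log2 difference of 0.052 (SE 0.068). Adam12, best known from muscle and bone development, had 78.5, 69.4, 76.1 and 62.2 normalized reads in the OA libraries and 88.4, 97.97, 83.9 and 86.2 in the sham libraries at 12-weeks, every OA library below every sham library, and -0.32 (SE 0.12) in limma, adjusted p = 0.368, exact permutation p = 0.0286. At 4-weeks its log2 difference was 0.047 (SE 0.19). Adam15 had 5544, 5539.5, 5511, 6231 and 6329 normalized reads in the OA libraries and 5109, 5281, 5303, 5090.0 and 6291 in the sham libraries at 4-weeks, and 6484, 7089.7, 7218 and 7075 normalized reads in the OA libraries and 6582, 6726, 6344 and 7286 in the sham libraries at 12-weeks. Its log2 differences were 0.11 (SE 0.085) and 0.049 (SE 0.071), and its libraries lay within a 1.243-fold and a 1.15-fold range. Adam8, Adam19 and Adam33 had unadjusted limma p-values of 0.134 to 0.94, and the ADAMs without protease activity, Adam11, Adam22 and Adam23, of 0.108 to 0.937. Adam4 and Adam32, ADAMs of the reproductive tract, had log2 differences of -0.29 and -0.99 at 4-weeks and of 0.12 and -0.0077 at 12-weeks. Their unadjusted limma p-values were 0.084 to 0.99, and in edgeR that of Adam32 at 4-weeks was 0.042. Sham replicate 3 was the highest library for both genes at 4-weeks.

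Of the TIMPs, Timp2 was higher in OA at both times, as given above, and Timp3 was lower. Timp3, which binds the matrix and also inhibits Adam17 and the aggrecanases, had 3662, 3493, 4089 and 2759 normalized reads in the OA libraries and 4215, 3887, 5762 and 4068 in the sham libraries at 12-weeks, a log2 difference of -0.35 (SE 0.14) in limma, adjusted p = 0.378, exact permutation p = 0.0857. At 4-weeks it had 2789.8, 3027, 2913, 3099.6 and 3463 normalized reads in the OA libraries and 3669.6, 3594, 4064, 3493 and 3201 in the sham libraries, with -0.24 (SE 0.085) in limma, adjusted p = 0.57, exact permutation p = 0.0159. Sham libraries took the upper end of the range at both times, and the groups overlapped. Timp4 had 585, 439, 637 and 390.4 normalized reads in the OA libraries and 649, 641, 726 and 626 in the sham libraries at 12-weeks, a log2 difference of -0.39 (SE 0.14) in limma, adjusted p = 0.348, exact permutation p = 0.0571, and -0.42 (SE 0.22) at 4-weeks. Timp1, the inhibitor that is often induced by inflammation, had 684 to 934 normalized reads in OA and 757 to 970.2 in sham at 4-weeks, and 877 to 1148 and 953 to 1522 at 12-weeks, with unadjusted limma p-values of 0.64 and 0.221.

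**Figure D3:**
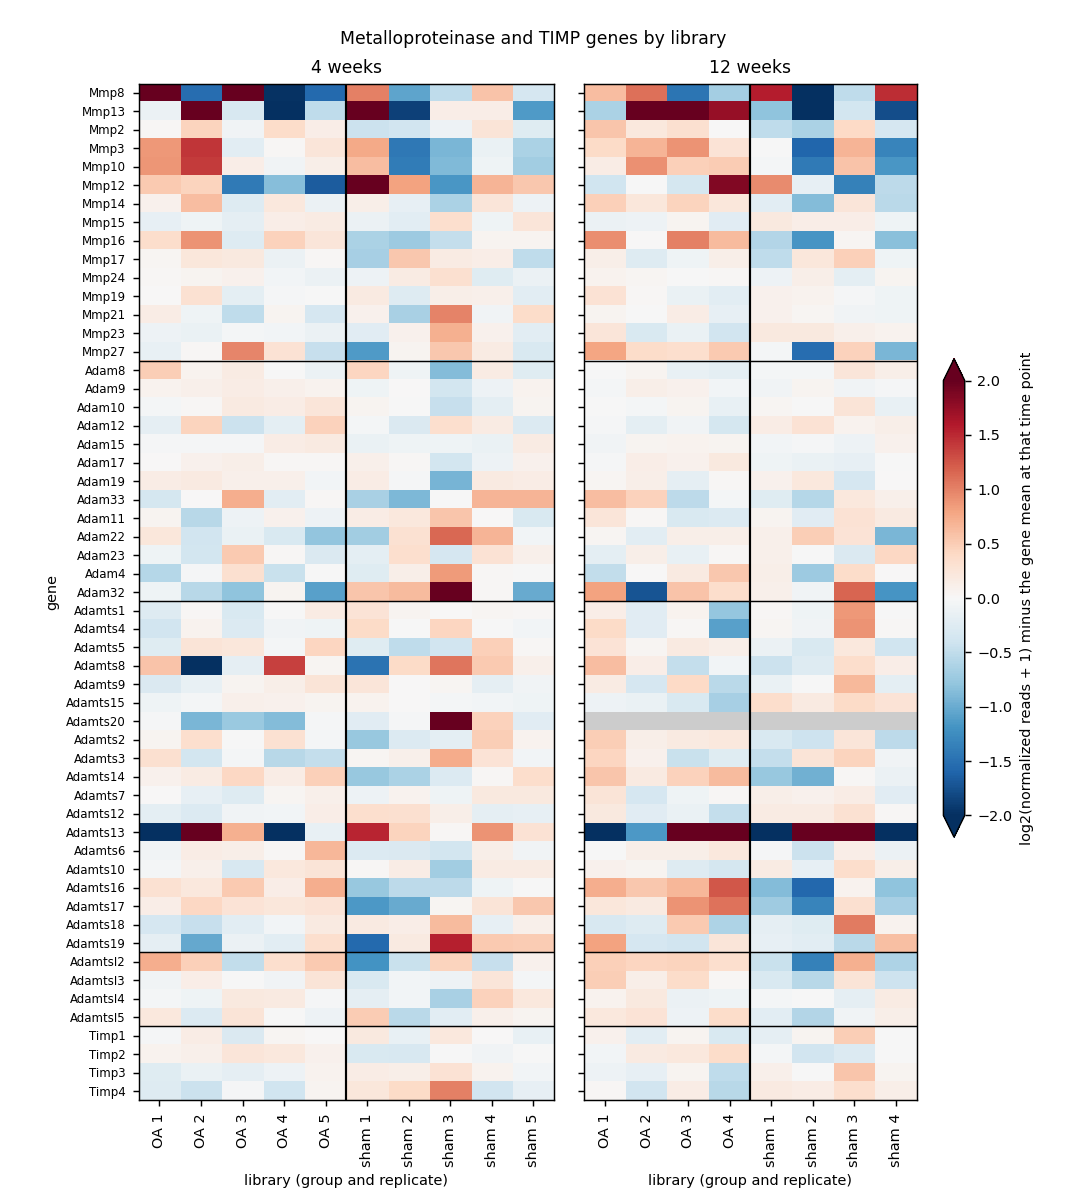
Heat map of log2(normalized reads + 1) of each tested member minus its mean over the libraries of the time point, with libraries as columns and members as rows by family, and grey where a member was not tested. The column of sham replicate 3 at 12-weeks resembles the OA columns for several MMP and ADAMTS genes.

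The same libraries stood at the ends of many of these ranges. At 12-weeks sham replicate 3 was the highest sham library in 14 of the 17 members that were higher in OA at an unadjusted p under 0.05, while sham replicate 2 had the lowest sham value in 14 of them. OA replicate 4 was the lowest OA library in all 6 members that were lower in OA. The mean log2 level of the fibroblast markers was 10.68 ± 0.17 in OA at 12-weeks and 10.21 ± 0.29 in sham (SD, n = 4 each), with sham replicate 3 at 10.63 and the other sham libraries at 9.99 to 10.21. The exact permutation p for that difference was 0.0857, or 0.279 adjusted over 13 lists, and 9 of 13 fibroblast markers were higher in OA and 1 lower at an unadjusted p under 0.05 in limma. At 4-weeks the fibroblast markers were at 10.25 ± 0.14 in OA and 9.88 ± 0.32 in sham (SD, n = 5 each), with an exact permutation p of 0.0635, or 0.297 adjusted over 13 lists. Muscle markers at 12-weeks were at 6.92 in OA and 6.41 in sham (exact permutation p = 0.0286, adjusted 0.279), osteoblast markers at 4.27 and 3.70 (exact permutation p = 0.0571, adjusted 0.279), and osteoclast markers at 4-weeks were at 5.63 and 6.65 (exact permutation p = 0.00794, adjusted 0.103). At 12-weeks the osteoclast markers lay the other way, at 5.96 in OA and 5.61 in sham (exact permutation p = 0.286, adjusted 0.511). Of 4 tested, 2 were higher in OA and 0 lower at an unadjusted p under 0.05 in limma. Chondrocyte markers at 12-weeks were at 5.76 ± 0.40 in OA and 5.11 ± 0.52 in sham (SD, n = 4 each, exact permutation p = 0.0857, adjusted 0.279), and 8 of 8 tested were higher in OA on average, 2 of them at an unadjusted p under 0.05 in limma. At 4-weeks they were at 5.55 in OA and 5.68 in sham (exact permutation p = 0.738, adjusted 0.802). Endothelial markers at 12-weeks were at 12.11 in OA and 12.34 in sham (exact permutation p = 0.143, adjusted 0.371), and 0 of 6 tested were higher in OA. Sham replicate 3 was the highest library of that list, at 12.67 against 12.15 to 12.30 in the other sham libraries, and OA replicate 4 the lowest at 11.89. The part of fibroblasts, endothelial cells, chondrocytes and the other cell types in the members' differences was not tested.

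Without sham replicate 3, the log2 differences of the members that were higher in OA at 12-weeks were further from 0 for several genes. They were 3.63 (adjusted p = 0.105 in limma) for Mmp13, 1.53 (adjusted p = 0.0838 in limma) for Mmp3, 1.38 (adjusted p = 0.114 in limma) for Mmp10 and 1.22 (adjusted p = 0.0669 in limma) for Adamtsl2. Those of Adamts14 and Adamts5 were 1.07 and 0.43. For all of these genes sham replicate 3 was the highest sham library, so leaving it out widens their differences by itself. For other members the value was nearer to 0, among them Adamts1 at -0.17, Adamts4 at -0.22, Timp3 at -0.23 and Mmp12 at 0.19. Those of Timp2, Adamts15 and Timp4 were also nearer to 0, at 0.32, -0.57 and -0.35. At 4-weeks, without its sham replicate 3, the values were -1.62 for Mmp12, -0.51 for Adamts20, -0.54 for Adam32, -0.22 for Timp4 and 0.12 for Adam9.

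**Figure D4:**
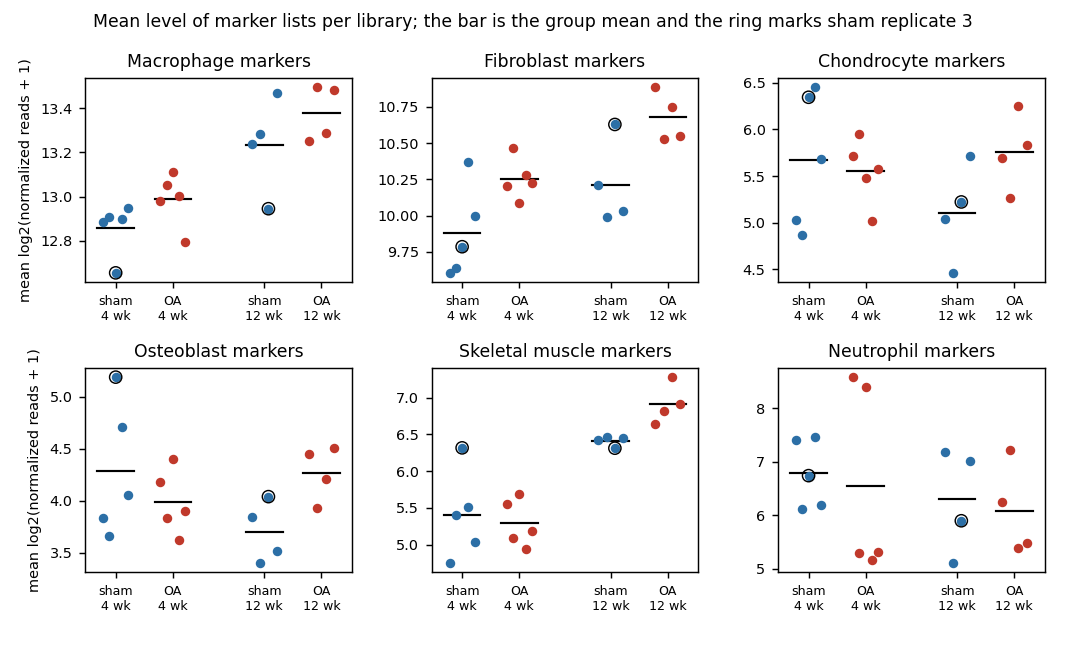
Mean log2 level of marker lists in each library, by time point and group, with each library as a point, the group mean as a bar and sham replicate 3 ringed. In the fibroblast list at 12-weeks, sham replicate 3 at 10.63 lies with the OA libraries.

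The rows of members under the minimum held few reads. At both times Adam2, Adam5, Adam7, Adam18, Adam24, Adam28, Adam30, Adam34, Mmp1, Mmp1b, Mmp7 and Mmp20 were below a mean of 10 normalized reads, and at 12-weeks Adamts20 was too. Most of these ADAMs are known from the testis and epididymis. At 4-weeks their summed level was 0.812 to 6.30 CPM (reads scaled to the library total) in 9 libraries and 28.96 CPM in sham replicate 3, the library of lowest depth. The same library was the highest for Adam32, at 53.4 normalized reads, where the OA libraries had 4.34 to 10.8, and the part of this library in the values of members of low level was not tested.

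Other genes of the pathway were taken from a list of 33 activators, inhibitors, trafficking partners and related proteases, of which 25 were tested at 4-weeks and 24 at 12-weeks. None was called by limma at either time, and 1 at 4-weeks and 2 at 12-weeks had an unadjusted p under 0.05. Pcsk6, a proprotein convertase that activates aggrecanases, was higher in OA at both times. It had 974.7, 987, 1046 and 1156 normalized reads in the OA libraries and 767, 414, 1108 and 569.99 in the sham libraries at 12-weeks, a log2 difference of 0.63 (SE 0.24) in limma, adjusted p = 0.358, exact permutation p = 0.114, and at 4-weeks 0.29 (SE 0.13) in limma, adjusted p = 0.619, exact permutation p = 0.0952. Papln, which encodes papilin, an ADAMTS inhibitor of the matrix, was lower at 12-weeks, at -0.46 (SE 0.16) in limma, adjusted p = 0.326, exact permutation p = 0.0571. Both counts of these regulators are a smaller share of their lists than the 7.92% and 12.4% of all genes.

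Known substrates of the enzymes were taken from a list of 20, of which 18 were tested at each time, and limma called 0. At 4-weeks 3 (16.7%) had an unadjusted p under 0.05 in limma, beside 7.92% of all genes, and at 12-weeks 9 of 18 did, beside 12.4%. At 12-weeks Fn1, Col1a1, Col3a1, Col2a1, Vcan and Cd44 were higher in OA, with log2 differences of 0.60, 0.57, 0.47, 0.95, 0.49 and 0.33. Cx3cl1, Notch1 and Tnfrsf1a, which like others of the list are cut from the membrane by ADAMs, were lower, at -0.46, -0.24 and -0.18. Among those others, Il6r, Notch2, Csf1r and Areg had log2 differences of 0.028 to 0.31. Cdh2, Hbegf and Mertk had -0.42 to -0.13, and none of these had an unadjusted p under 0.05 in limma. At 4-weeks Comp, encoding a cartilage matrix protein that Adamts7 and Adamts12 can cut, was higher, at 0.96 (SE 0.42) in limma, adjusted p = 0.616, exact permutation p = 0.111, and Cdh2 and Cx3cl1 were lower. Col1a1 and Col3a1 are also on the list of fibroblast markers, and Col2a1 and Comp on that of chondrocyte markers, so that their values are not separate from those.

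The comparisons at the 2 times used different rats. Of 54 members tested at both times, 38 (70.4%) had the same sign of difference, beside 58.4% of 14420 genes. Adamts14, Adamts16, Mmp2, Mmp3, Mmp10, Mmp16, Timp2 and Timp3 had an unadjusted p under 0.05 at both times, which is 72.7% of the 11 members at 4-weeks and 34.8% of the 23 at 12-weeks, beside 31.5% and 19.1% for all genes. All 8 had the same sign at both, beside 332 of the 341 genes that had such a p at both times. Timp3 was lower in OA and the other 7 were higher. For Adamts16 the log2 difference was 0.76 at 4-weeks and 1.58 at 12-weeks, for Mmp16 0.69 and 1.28, and for Adamts14 0.52 and 0.91.

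A difference in the OA effect between the time points was tested as an interaction on log2 CPM over all 18 libraries. It was called for 0 of 14420 genes and 0 members, and 432 genes (3.0%) and 2 of 54 members had an unadjusted p under 0.05 in limma. Adamts15 had an interaction of -0.60 (SE 0.13) in limma, adjusted p = 0.962, since it was lower in OA at 12-weeks and nearly equal at 4-weeks. Adamts16 had an interaction of 0.84 (SE 0.35) in limma, adjusted p = 0.962. In edgeR 3 members had an unadjusted p under 0.05 for the interaction, and no share over all genes is given for that fit.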

How the data were processed

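RNA was sequenced from CD11b/c-sorted synovial cells of rats in 18 libraries, whose surgery and time come from the labels. Per the submitters' processing notes and the study's methods, the authors checked reads with fastp 0.20.0, used STAR 2.7.6a for alignment to Rnor_6.0, Sambamba to drop duplicates and featureCounts 2.0.0 for counting, and normalized the counts with DESeq2 1.24.0. Whether counting used the strand is not given in the sources used here, so reads of overlapping genes may be shared. The values the authors deposited are DESeq2-normalized reads, a signal at or above 0, scaled for each time point separately, so levels were compared within a table. The deposited tables also hold the authors' mean level, log2 fold changes with errors, test statistics, p-values and adjusted p-values of their own comparison, which were not used. Divided by what 1 read is worth, 100% of values came out whole (tolerance 0.01 reads), so the reads per gene were recovered. They ranged from 4662344 to 18080503 per library, and 3 reads were taken as the floor.

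Within a time point, OA and sham were compared by limma 3.58.1 in R 4.3.3 on log2(normalized reads + 1), with a mean-variance trend, a scale that understates differences of low genes. The fit took genes whose mean reached 10, adjustment by Benjamini-Hochberg covered all of them, and calls needed an adjusted p under 0.05 and a log2 difference of 0.5 or more in size. Count tests were run on the recovered reads with edgeR 4.0.16 and DESeq2 1.42.0. Whether OA differences changed between times was tested as an interaction in limma on log2 CPM (reads scaled to the library total) with TMM scaling and a prior count of 2. Exact permutation tests were two-sided. Other steps ran in Python 3.11.15 (scipy 1.17.1, pandas 2.3.3, numpy 2.4.6). The main limma, edgeR and DESeq2 fits of each time point and the limma interaction were run on simulated data. No library stood apart in the simulated data, and the other settings and the fits without 1 library were not run on them. Replicates are separate pools of rats. Within groups no library held the same reads as another, since 32 pairs differed by a chi-square of 5.39 to 35.0 for each degree of freedom. Pairs across groups are not covered, and a second library made from the same pool might not be seen this way.

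The members and the lists of markers, regulators and substrates were chosen with earlier results of these data known. Every member is reported in ranges and counts. Values per library, at the time concerned, are given for members with an unadjusted p under 0.05 or groups that did not overlap at either time, for the 2 members with the most reads in each family, and for a few others where the text says what was seen, chosen after their values were seen. Other settings tried were DESeq2, edgeR, TMM scaling, pseudocounts of 0.5 and 5, a minimum mean of 50 or only 1 read, no minimum on the fold change, sample quality weights, the replicate number as a block, a prior count of 5, and fits without 1 library each. Promoters come from RefSeq, assembly GRCr8, which differs from the build of the files, and were matched by gene symbol. The marker genes Col1a2, Ttn, Pecam1, Cldn5 and Dcstamp were not analysed here.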

Additional observations from a re-analysis of the deposited data

Results flagged for a closer look

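In 8 of 120 groups of 4 or 5 libraries, over the 30 members with values per library, the highest library lay far from the nearest of the others by Dixon's test at the 95% level, where 6 would be so by chance at 1 in 20. Mmp13 at 4-weeks had 1327 normalized reads in OA replicate 2, with the other OA libraries at 10.8 to 63.8, and 285 in sham replicate 1, with the other sham libraries at 18.4 to 76.6. Sham replicate 3 of 12-weeks had 32881 normalized reads of Adamts1, with the other sham libraries at 16945 to 18240, and 9019 of Adamts4, with the others at 4616 to 4998. Mmp12 at 12-weeks had 1045 in OA replicate 4 (others of the group 218 to 285). At 4-weeks Adam15 had 6291 in sham replicate 5 (others 5090.0 to 5303), Adamts1 13389 in sham replicate 1 (others 11145 to 11511) and Adamts6 220.2 in OA replicate 5 (others 132 to 152). The cause of these values was not tested.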

How the results depend on the processing

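The count of all genes called at 4-weeks was 0 in limma, 27 in DESeq2, 1 with a replicate block and 1 with sample quality weights. At 12-weeks DESeq2 called 95 genes in all and 5 members, against 0 and 0 in limma, and the cause was not tested. When single libraries were left out, limma called 0 to 1 genes at 4-weeks and 0 to 81 at 12-weeks, and 0 to 6 members at 12-weeks, with the highest counts at 12-weeks without sham replicate 3. Members at an unadjusted p under 0.05 numbered 6 to 15 at 4-weeks and 12 to 21 at 12-weeks in these fits, which have fewer libraries. With a replicate block, they numbered 11 at 4-weeks and 24 at 12-weeks, and 0 members were called at either time or for the interaction. No shares over all genes are set beside these counts here. Same-numbered libraries showed no shared deviations in general, with correlations of -0.131 to 0.080 at 4-weeks and -0.026 to 0.298 at 12-weeks, and 0 of 5 and 1 of 4 pairs correlated best with their own number.

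The direction of Adamtsl4 at 4-weeks turned to -0.060 with sample quality weights, that of Adamtsl5 at 4-weeks to -0.018 in edgeR, and that of Mmp12 at 12-weeks to -0.011 with sample quality weights. Leaving out single libraries turned the sign for 16 of 55 members at 4-weeks and 17 of 54 at 12-weeks, 11 and 16 of them among members without values per library. The other 6 differences ranged from -0.063 to 0.16 for Adam12, -0.065 to 0.21 for Adamtsl4, -0.096 to 0.16 for Adamtsl5, -0.74 to 0.96 for Mmp13 and -0.12 to 0.012 for Mmp15, all at 4-weeks, and from -0.029 to 0.090 for Adamtsl4 at 12-weeks. No cause was tested. Over the members with values per library, 520 of 540 values with a library left out and 526 of 534 under the other settings kept direction and side of the threshold.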

Other observations

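On the one scale shared by the time points, log2 CPM with TMM scaling, a few members had different levels at 4-weeks and 12-weeks in the sham libraries. These genes were chosen after their values were seen, the number of rats in a pool changed with time too so that both cannot be told apart, and no test was run. Mmp12 was at 5.77 to 8.90 in the sham libraries of 4-weeks and at 3.09 to 5.36 in those of 12-weeks, and at 5.16 to 7.37 and 4.04 to 6.30 in the OA libraries. Adamts4 lay the other way, at 7.34 to 7.93 in sham at 4-weeks and 8.41 to 9.39 at 12-weeks, and at 7.03 to 7.46 and 7.43 to 8.88 in OA. Adamts15 was at 6.01 to 6.16 in sham at 4-weeks and 6.53 to 6.74 at 12-weeks, and at 6.03 to 6.19 and 5.70 to 6.26 in OA. In the OA libraries the ranges of both times overlapped for all 3 genes, and in the sham libraries for none of them.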
